A study of Homo sapiens with 22 samples.

Results

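HYOU1, CRELD2, KDELR3, TRIB3 and PSAT1 are 5 genes of the response to stress in the endoplasmic reticulum (ER) and to amino acid shortage, and their RNA was followed across 11 established human glioblastoma cell lines. The 5 genes were chosen by their measured levels in these samples: for standing out in T98G, for differing between the T98G libraries, or for opposite courses in SNU-466. They are 5 of 6825 genes in the deposited tables, and only rows that a table holds could be used. A table of 8 lines held 2221 genes, among them HYOU1, CRELD2 and TRIB3. A table of 3 lines held 5383 genes, among them TRIB3, PSAT1 and KDELR3. The levels that chose the genes are given as descriptions without a test. Comparisons are tested only for genes other than the members, and, for the members, only between AM-38 and A-172. The other genes are not free of selection either, since nearly all genes of the tables differ between sets of these lines.

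Each line was grown untreated and sequenced as 2 libraries, 22 in all, from poly(A) RNA. The 8-line table holds T98G, U-87MG and U-138MG, grown in EMEM, LN-18, LN-229 and KNS-42, grown in DMEM, and KALS-1 and SNU-1105, grown in RPMI medium, all with 10% serum. The 3-line table holds SNU-466, grown in RPMI medium with 10% serum, AM-38, grown in EMEM with 20% serum, and A-172, grown in DMEM with 10% serum. Each line of the 3-line table thus had a medium of its own, so line and medium cannot be told apart there. T98G, LN-18 and KALS-1 also differed in medium from each other, so the same holds when T98G is compared with those lines alone. The labels do not say whether a line's libraries are from separate cultures, so the spread behind each p-value may be technical.

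Library totals were 16958669 to 21213215 reads. In the 8-line table, the means of T98G, LN-18 and KALS-1 together were at least 2-fold from those of the other 5 lines in 99.3% of genes. In the 3-line table, SNU-466 was at least 2-fold from the others in 93.9% of genes, so the listed genes were treated as chosen for differing. The T98G libraries stood apart from each other: of 644 genes with a mean of at least 1 FPKM (a level per length of transcript and per library total), 19.6% differed by 2-fold or more. In the other 10 lines this share was 0.108% to 8.59%, the highest in SNU-1105. Markers of glial and glioma cells were uneven across the lines. VIM averaged 264 FPKM in T98G, S100B 958 FPKM and NES 84.2 FPKM in SNU-466, while SOX2 averaged 0.01 FPKM in T98G and GFAP 3.41 FPKM in SNU-466. PTPRC, a pan-leukocyte marker, averaged at most 0.385 FPKM in any line, but the myeloid markers CD14 and CSF1R were not low everywhere: CD14 averaged 6.34 FPKM in KALS-1, and CSF1R 4.74 FPKM in SNU-1105 and 1.68 FPKM in U-87MG.

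The ER folds and modifies secreted and membrane proteins, and when unfolded protein builds up, the sensors ATF6, IRE1 (ERN1) and PERK (EIF2AK3) start the unfolded protein response. ATF6 and XBP1, the factor made through IRE1, switch on chaperones and transport genes through ER stress elements upstream of them. PERK and the amino acid sensor GCN2 (EIF2AK4) raise translation of ATF4, which switches on genes of amino acid synthesis and uptake and of tRNA charging. HYOU1 is a large ER chaperone of the HSP70 family, CRELD2 an ER-resident and secreted folding factor, and KDELR3 a receptor that returns escaped ER proteins from the Golgi. TRIB3 is a pseudokinase induced through ATF4 and DDIT3. PSAT1 is the aminotransferase of the serine synthesis pathway, downstream of PHGDH.

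In GRCh38 with GENCODE 29, the members are protein-coding genes. HYOU1 lies on chromosome 11 at 119044189 to 119057202 on the minus strand. The other members lie on the plus strand, CRELD2 on chromosome 22 at 49918167 to 49927540, KDELR3 on chromosome 22 at 38468062 to 38483447, TRIB3 on chromosome 20 at 362835 to 397559, and PSAT1 on chromosome 9 at 78297143 to 78330093. HYOU1, CRELD2 and KDELR3 overlap the genes AP003392.3, ALG12 and DDX17 on the opposite strand. The libraries were strand-specific, but it is not stated whether the counting used strand, so reads in these overlaps are uncertain. PSAT1 has 4 named processed pseudogenes and could share reads with them.

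The upstream sequences are shown for the 3 members in which a textbook ER stress element was found within the 250 bases before the RefSeq start (GRCh38.p14, both strands searched). The ER stress response element was searched as CCAAT and CCACG with any 9 bases between them, element II as ATTGG and CCACG with any 1 base between them, and the unfolded protein response element as TGACGTGG. Capitals mark the matches. In HYOU1, the first run of capitals is an unfolded protein response element overlapping an element II in reverse, and the second is another element II in reverse. In CRELD2 the capitals mark 1 ER stress response element in reverse, and in KDELR3 an unfolded protein response element in reverse.
HYOU1, chr11:119057206-119057405, minus strand: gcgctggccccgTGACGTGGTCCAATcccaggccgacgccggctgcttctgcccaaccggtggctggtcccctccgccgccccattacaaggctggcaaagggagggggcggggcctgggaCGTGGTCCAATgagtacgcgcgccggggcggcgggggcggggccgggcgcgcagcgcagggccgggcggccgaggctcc
CRELD2, chr22:49918534-49918633, plus strand: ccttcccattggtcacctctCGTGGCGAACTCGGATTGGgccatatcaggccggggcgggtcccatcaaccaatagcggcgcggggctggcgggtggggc
KDELR3, chr22:38467976-38468061, plus strand: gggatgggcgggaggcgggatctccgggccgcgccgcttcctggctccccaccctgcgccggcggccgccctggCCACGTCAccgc

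These matches are rare among promoters in general. Of 35116 RefSeq promoters, 0.0740% held the ER stress response element, 0.0513% element II and 0.612% the unfolded protein response element. The HYOU1 elements II began 185 and 79 bases before the start, and its unfolded protein response element 188 bases before it. The CRELD2 element began 80 bases and the KDELR3 element 46 bases before the start. None of these was found in the same windows of TRIB3, for which 3 start sites are listed, or PSAT1. The CEBP-ATF response element TGATGNAA, which ATF4 binds, was present in 3.14% of promoters and in none of the members' windows. Of 132 genes of the ER and amino acid lists described below with a RefSeq promoter, 8 held the ER stress response element, 3 element II, 11 the unfolded protein response element and 17 the CEBP-ATF element. These counts are per gene, over 198 promoters, and include the members, while the shares above are per promoter. A match is a run of letters and does not show binding, and a missing match covers only the letters searched in that window.

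**Figure D1:**
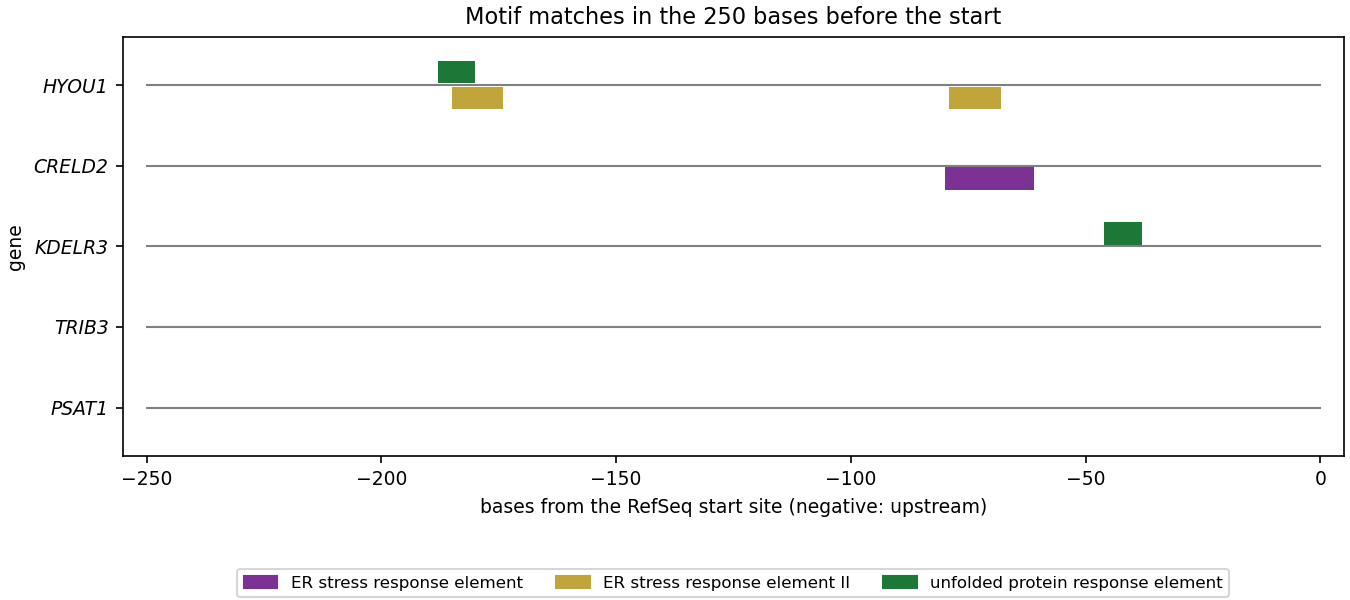
Motif matches upstream of each member, with the distance from the RefSeq start in bases on the x axis and the gene on the y axis. HYOU1 has 3 matches, CRELD2 and KDELR3 have 1 each, and TRIB3 (3 start sites) and PSAT1 have none.

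HYOU1 was higher in both T98G libraries than in any library of the 7 other lines. It stood at 538 and 156 FPKM in T98G libraries 1 and 2, or 69245 and 18274 reads. The other lines followed with 69.5 and 69.6 FPKM in KNS-42, 60.2 and 59.7 FPKM in LN-18, 56.6 and 57.1 FPKM in LN-229, and 53.3 and 40.1 FPKM in U-87MG. The lowest were SNU-1105 with 42.4 and 46.4 FPKM, KALS-1 with 40.7 and 40.6 FPKM, and U-138MG with 33.8 and 37.2 FPKM. The lower T98G library was 2.25-fold above the highest library of the other lines, and the higher one 7.73-fold. Outside T98G the gene was even: the highest of the 14 other libraries was 2.06-fold above the lowest. Only U-87MG and SNU-1105 overlapped among neighbours in the order of the means.

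CRELD2 followed HYOU1 in T98G but not in the order of the other lines. It stood at 151 and 42.9 FPKM in the T98G libraries. LN-229 came next with 20.1 and 17.1 FPKM. KALS-1 had 9.64 and 10.0 FPKM, U-87MG 10.9 and 8.58 FPKM, and LN-18 9.50 and 9.81 FPKM, and neighbours among these lines overlapped. SNU-1105 followed with 7.52 and 8.38 FPKM, U-138MG with 6.76 and 7.11 FPKM, and KNS-42, second in HYOU1, was last in CRELD2 with 4.17 and 4.16 FPKM. The lower T98G library was 2.14-fold above the highest other library, and the higher one 7.53-fold.

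TRIB3 was the most uneven of the 3 members of the 8-line table and the only member in both tables. It stood at 168 and 76.3 FPKM in T98G, at 26.7 and 18.2 FPKM in U-87MG, at 14.9 and 16.1 FPKM in LN-18 and at 9.72 and 11.5 FPKM in LN-229. The remaining lines of that table were low, U-138MG with 3.14 and 3.47 FPKM, KALS-1 with 3.17 and 2.90 FPKM, SNU-1105 with 1.68 and 2.71 FPKM and KNS-42 with 1.66 and 1.74 FPKM. U-138MG and KALS-1 overlapped, as did SNU-1105 and KNS-42. The lower T98G library was 2.86-fold above the highest other library, and the higher one 6.28-fold; among the other lines the highest library was 16.1-fold above the lowest. In the 3-line table, TRIB3 had 1.77 and 1.44 FPKM in SNU-466, 22.6 and 20.5 FPKM in AM-38 and 8.27 and 7.88 FPKM in A-172. SNU-466 thus stood with the lowest lines of the other table and AM-38 beside U-87MG, though levels of the 2 tables were scaled separately, each library to its own total.

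**Figure D2:**
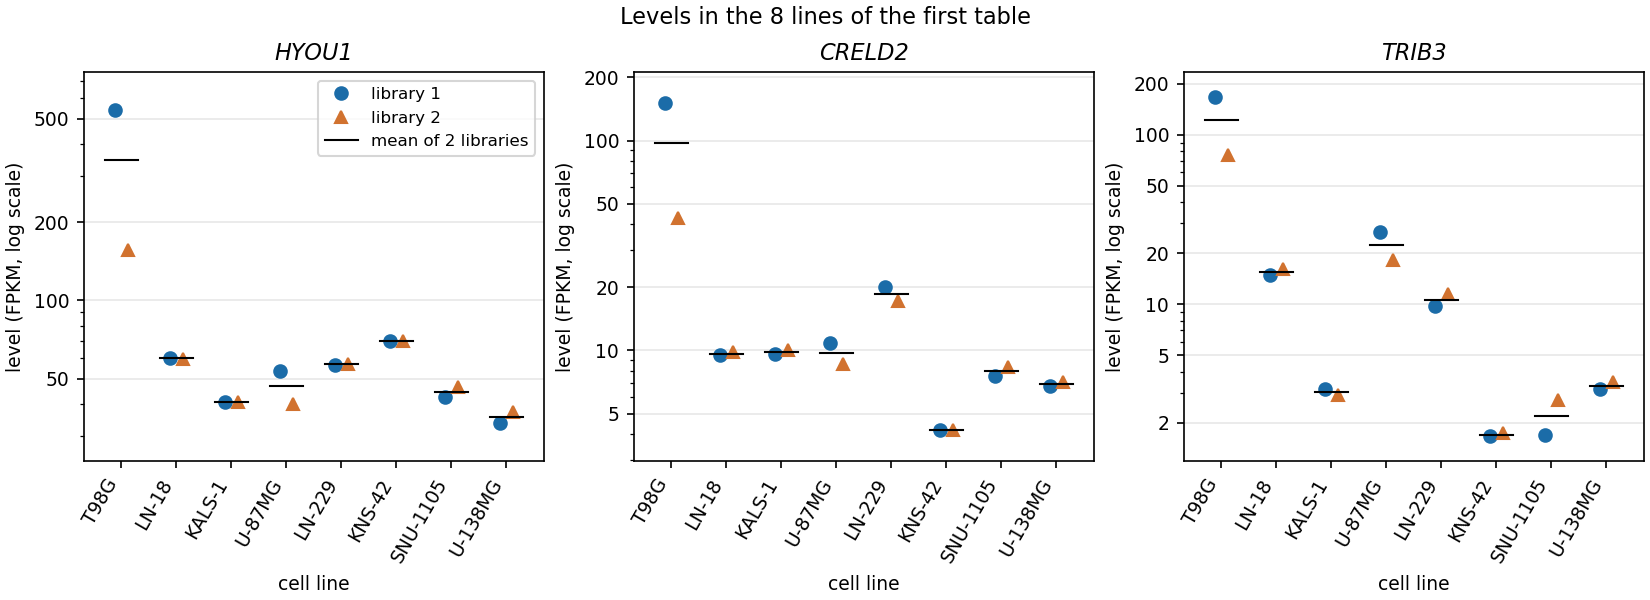
Levels of HYOU1, CRELD2 and TRIB3 in FPKM (log scale) in the 8 lines of the first table, with T98G at the left, the 2 libraries of a line as points and their mean as a bar. Both T98G libraries lie above every other library, and T98G library 1 lies above library 2 in each gene.

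On the log2 scale, T98G exceeded the mean of the 7 other lines by 2.82 for HYOU1, 3.47 for CRELD2 and 4.49 for TRIB3. These values rest partly on library 1. Without it they were 1.67, 2.29 and 3.81, and without library 2 they were 3.45, 4.11 and 4.95. Of all 2095 genes tested in this comparison, 20.7% were called higher in T98G and 30.1% lower, at an adjusted p under 0.05 and a log2 fold change of at least 1. The members were chosen for this contrast, so nothing is read from their calls.

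The difference between the T98G libraries ran the same way in the 3 members. Library 1 over library 2 was 3.44 for HYOU1 (95% exact interval 3.38 to 3.50, counting error only), 3.52 for CRELD2 (3.40 to 3.65) and 2.20 for TRIB3 (2.12 to 2.28). Over all 2221 listed genes, 12.5% differed by 2-fold or more between these libraries, 5.00% with library 1 higher and 7.52% with library 2 higher. Among the 644 genes at 1 FPKM or more, 6.37% were at least 2-fold higher in library 1 and 13.2% in library 2. When these genes were ordered by the ratio, CRELD2 was number 9, HYOU1 number 10 and TRIB3 number 33. In the 7 other lines the members' libraries were closer: the higher was at most 1.61-fold above the lower, for TRIB3 in SNU-1105.

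Of the other ER genes listed, the folding genes in the 8-line table moved with the members. SDF2L1, an ER-resident cofactor of chaperones, stood at 154 and 57.1 FPKM in T98G libraries 1 and 2, a ratio of 2.70. DNAJB11, an ER co-chaperone of HSPA5, stood at 87.2 and 29.1 FPKM, a ratio of 2.99. They were number 23 and number 14 among the 644 genes. The 8 amino acid genes of the same table did not reach a 2-fold difference. Most genes did not either: 12.5% of all listed genes reached it, and 19.6% of those at 1 FPKM or more. SLC7A11, the cystine/glutamate exchanger, stood at 137 and 145 FPKM, a ratio of 0.944, and SLC1A5, a glutamine transporter, at 137 and 163 FPKM, a ratio of 0.843. SLC6A9, a glycine transporter, had a ratio of 1.08, SLC38A2, a neutral amino acid transporter, 1.34, GPT2, an alanine aminotransferase, 1.24, CBS, which makes cystathionine, 1.01 and SLC7A2, a transporter of cationic amino acids, 1.37. ALDH1L2 had 0.01 FPKM in both libraries. The ratios of SDF2L1 and DNAJB11 were thus above those of the 8 amino acid genes. The table appears chosen partly by T98G levels, so a high library 1 may itself have let a gene in. The ratios are therefore descriptions, and nothing is concluded from them about either group of genes. TRIB3 was chosen for its ratio, so nothing is read from its place. This is a comparison of 2 libraries with no replicate of either.

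The epithelial keratin KRT18 also differed, with 35.9 FPKM in T98G library 1 and 17.4 FPKM in library 2, while the epithelial cadherin CDH1 had 0 reads in both. Of the immune markers, PTPRC had at most 1 read, CD14 6 and 2 reads, and CSF1R 3 and 6 reads. EPCAM and the endothelial markers PECAM1, VWF and CDH5 were not analysed here in T98G. The part of KRT18-bearing cells in the difference was not tested. In a bulk library, fewer cells that make an RNA and less of that RNA in each cell cannot be told apart.

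The other lines did not share 1 direction. In U-87MG, library 1 over library 2 was 1.33 for HYOU1, 1.27 for CRELD2, 1.47 for TRIB3, 1.74 for SDF2L1 and 1.27 for DNAJB11, and also 1.33 for the amino acid gene SLC7A11. In SNU-1105 it was 0.914 for HYOU1, 0.898 for CRELD2 and 0.622 for TRIB3, and in U-138MG 0.908, 0.951 and 0.904, with library 2 the higher. The amino acid genes were also higher in SNU-1105 library 2, apart from SLC7A2, which averaged 0.01 FPKM. Their ratio was 0.399 for ALDH1L2 and CBS, 0.616 for GPT2 and 0.628 for SLC6A9. It was 0.823 to 0.918 for SLC1A5, SLC7A11 and SLC38A2. SDF2L1, at 1.17, and DNAJB11, at 1.05, were not higher in that library. Of 768 genes of at least 1 FPKM in SNU-1105, 8.59% differed by 2-fold or more. Of 826 genes of at least 1 FPKM in U-87MG, 1.21% differed by 2-fold or more and 6.30% by 1.5-fold or more.

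**Figure D3:**
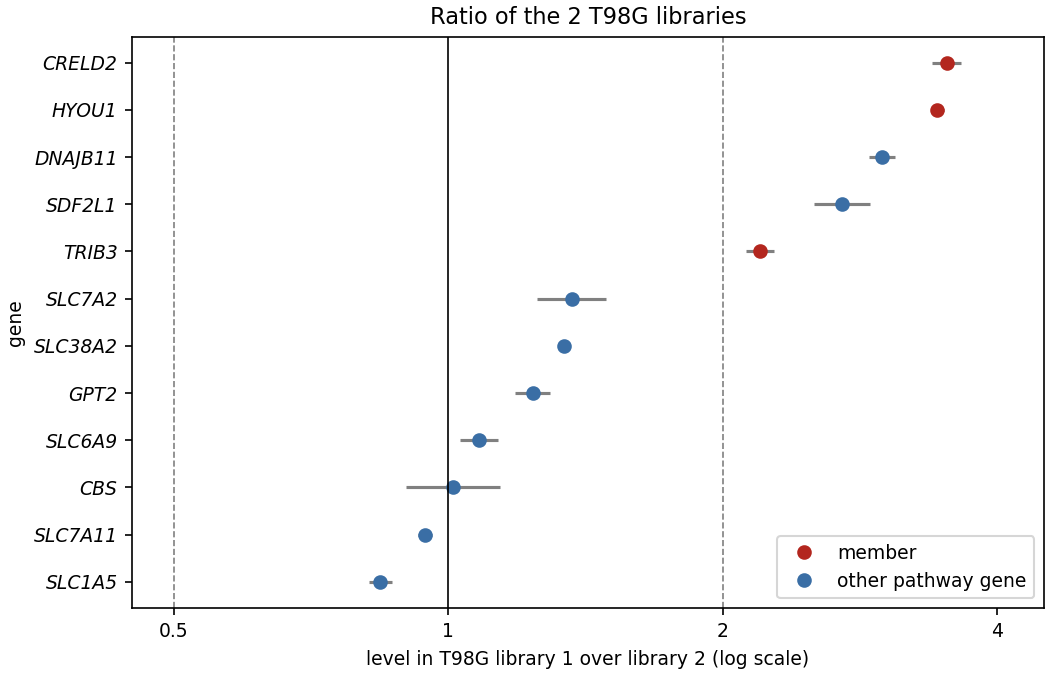
Level in T98G library 1 divided by that in library 2 (log scale, x axis) for the 12 listed pathway genes of at least 1 FPKM (y axis), with 95% exact intervals from read counts; dashed lines mark a 2-fold difference. HYOU1, CRELD2, TRIB3, SDF2L1 and DNAJB11 lie between 2.20 and 3.52, and the amino acid genes between 0.843 and 1.37.

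The other listed genes of these pathways were mostly higher in T98G than in the other lines. Of 10 such genes in the 8-line table, 9 were called higher and 1 lower than the mean of the 7 other lines (edgeR quasi-likelihood test, Benjamini-Hochberg adjusted), against 20.7% and 30.1% of all genes. T98G was part of the split on which the table appears chosen, so its calls and p-values use values that may have let genes in. DNAJB11 averaged 15.7 and 8.21 FPKM in KALS-1 and LN-18, beside 7.12 to 14.3 FPKM in the lines of the other side. SDF2L1 averaged 33.9 and 13.1 FPKM beside 6.46 to 29.9 FPKM, and SLC6A9 3.30 and 3.46 FPKM beside 1.11 to 4.77 FPKM. Without T98G the sides overlapped in these genes. With TMM scaling the split of all calls turned: 55.2% of them were higher, against 40.7% with library totals. SDF2L1 was 2.67 ± 0.21 higher on the log2 scale (SE, edgeR adjusted p = 1.64e-09) and DNAJB11 2.36 ± 0.20 (edgeR adjusted p = 4.72e-09). The dispersion of a gene was shared over all lines, so these SE and p-values do not measure the spread of the T98G libraries alone. Both fold changes rest on library 1 as those of the members do: without it they were 1.78 and 1.37, and without library 2 they were 3.22 and 2.95.

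The amino acid genes differed in how far T98G stood from the other lines. SLC6A9 stood at 35.7 and 33.0 FPKM in T98G, and its log2 fold change was 3.66 ± 0.13 (SE, edgeR adjusted p = 2.28e-14). SLC7A11 had 3.14 ± 0.13 (SE, edgeR adjusted p = 2.87e-13), though LN-18 had 106 and 98.2 FPKM beside 137 and 145 FPKM in T98G. CBS had 4.70 and 4.65 FPKM in T98G and at most 1.42 FPKM in the other libraries, a log2 fold change of 3.42 ± 0.20 (SE, edgeR adjusted p = 2.98e-11). GPT2 had 38.9 and 31.4 FPKM in T98G and 26.6 and 28.5 FPKM in LN-18, and its log2 fold change was 2.00 ± 0.14 (SE, edgeR adjusted p = 5.19e-10). SLC38A2 had 306 and 228 FPKM in T98G and 286 and 255 FPKM in LN-18, so these lines overlapped. SLC7A2 had 8.77 and 6.42 FPKM in T98G, 6.46 and 6.06 FPKM in LN-18 and at most 0.1 FPKM elsewhere. ALDH1L2, a mitochondrial folate enzyme, was the gene called lower, with 0.01 FPKM in both T98G libraries and 0.1 to 13.8 FPKM in the other lines.

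Against KALS-1 and LN-18 alone, the lines on its own side of the split, T98G had 7 of the 10 called higher and 1 lower, against 15.1% and 27.6% of all genes, or 42.7% in either direction. T98G levels helped set that split, so this count is not free of the choice of genes either. GPT2 (log2 0.99) and SLC38A2 (log2 0.67) fell short of the fold threshold. A call here does not mean that T98G was far above both lines. SLC7A2 had 6.42 to 8.77 FPKM in T98G and 6.06 to 6.46 FPKM in LN-18, which overlapped, and averaged 0.07 FPKM in KALS-1. SLC7A11 averaged 141 FPKM in T98G, 102 FPKM in LN-18 and 3.2 FPKM in KALS-1. SDF2L1 was 2.33 ± 0.28 and DNAJB11 2.36 ± 0.26 higher on the log2 scale (SE, edgeR adjusted p = 1.15e-06 and 4.71e-07). Without T98G library 1, they were 1.44 and 1.36.

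KDELR3 and PSAT1 ran in opposite directions in SNU-466. KDELR3 stood at 111 and 107 FPKM in SNU-466, against 14.3 and 14.1 FPKM in AM-38 and 17.3 and 17.2 FPKM in A-172. Both SNU-466 libraries were 6.22-fold to 6.45-fold above the highest other library. PSAT1 stood at 9.14 and 8.06 FPKM in SNU-466, against 119.8 and 117 FPKM in AM-38 and 145 and 142 FPKM in A-172. The lowest other library was 12.9-fold to 14.6-fold above those of SNU-466. TRIB3, at 1.77 and 1.44 FPKM in SNU-466, went with PSAT1: the lowest other library was 4.45-fold to 5.47-fold higher. On the log2 scale SNU-466 differed from the mean of AM-38 and A-172 by 2.80 for KDELR3, −3.93 for PSAT1 and −3.04 for TRIB3. Of all 5035 genes tested, 38.7% were called higher and 55.2% lower in SNU-466, so calls in either direction were the rule in this table. Its genes appear chosen on this same contrast, so the p-values given below for other genes in SNU-466 are not independent of that choice.

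**Figure D4:**
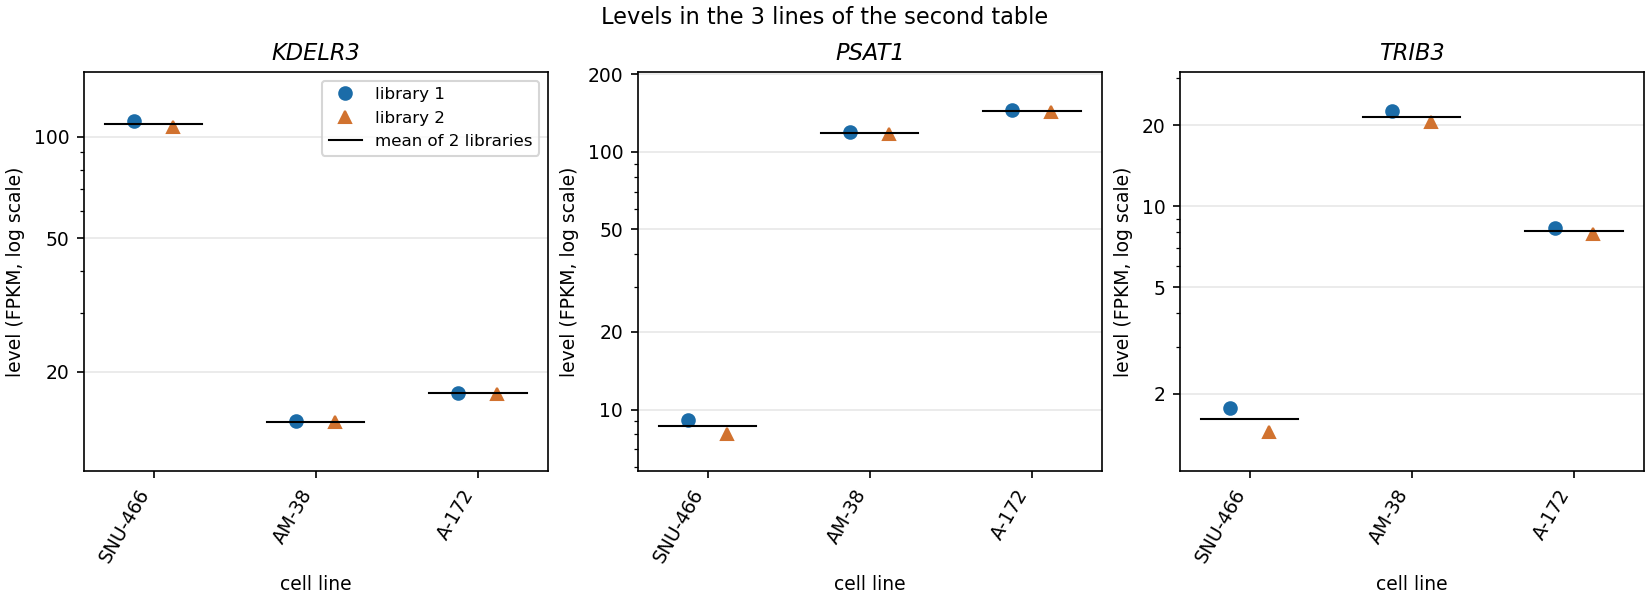
Levels of KDELR3, PSAT1 and TRIB3 in FPKM (log scale) in SNU-466, AM-38 and A-172, with the 2 libraries of a line as points and their mean as a bar. SNU-466 is highest in KDELR3 and lowest in PSAT1 and TRIB3, with no overlap between lines in any of the 3 genes.

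The members were not chosen for the difference between AM-38 and A-172, which was compared by a test. The levels of both lines were what SNU-466 was set against in the choice, so the test is not independent of it. TRIB3 was higher in AM-38, by 1.42 ± 0.08 on the log2 scale (SE, edgeR quasi-likelihood adjusted p = 5.33e-28). PSAT1 and KDELR3 were lower in AM-38 by less than the fold threshold, with log2 fold changes of −0.28 ± 0.05 and −0.28 ± 0.07 (SE, edgeR adjusted p = 2.27e-07 and 0.000611). These depended on the scaling: with RLE factors both were −0.07 (edgeR adjusted p = 0.179 and 0.411), and with DESeq2 both were −0.07 (DESeq2 adjusted p = 0.251 and 0.503). Of all genes, 24.5% were called higher and 24.1% lower in AM-38, or 48.6% in either direction. Of 51 other pathway genes, 8 were called higher and 6 lower. PHGDH, SLC7A11 and KDELR2 were not among them. FKBP7, with 4.29 and 4.08 FPKM in AM-38 and 0.54 and 0.74 FPKM in A-172, and FKBP9, with 11.0 and 11.2 FPKM in AM-38 and 72.6 and 70.5 FPKM in A-172, differed in opposite directions. CHAC1, a glutathione-degrading enzyme induced through ATF4, had 6.25 and 5.16 FPKM in AM-38 and 2.87 and 2.30 FPKM in A-172, a log2 fold change of 1.15 ± 0.16 (SE, edgeR adjusted p = 3.99e-10); it fell to 0.99 without A-172 library 2 and to 1.00 without AM-38 library 1, just under the threshold. INHBE, a secreted inhibin subunit also induced through ATF4, had 367 and 292 reads in AM-38 and 7 and 7 reads in A-172.

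The listed ER genes were mostly higher in SNU-466, the side of KDELR3. Of 13 chaperones and folding enzymes, 12 were called higher and none lower, beside 38.7% and 55.2% of all genes. Their median log2 fold change was 2.02, where the median of all genes was −1.46. FKBP9, a prolyl isomerase of the ER, stood at 363 and 364 FPKM in SNU-466, 11.0 and 11.2 FPKM in AM-38 and 72.6 and 70.5 FPKM in A-172 (log2 fold change 3.69 ± 0.03 SE, edgeR adjusted p = 3.10e-86). Its relative FKBP7 stood at 20.4 and 20.8 FPKM in SNU-466 and at most 4.29 FPKM in the other libraries (log2 fold change 3.65 ± 0.07 SE, edgeR adjusted p = 5.57e-63). SERPINH1, the collagen chaperone, stood at 163 and 168 FPKM in SNU-466, 22.2 and 21.3 FPKM in AM-38 and 36.6 and 33.1 FPKM in A-172. DNAJB11 was the folding gene that fell short of the fold threshold, with a log2 fold change of 0.86. The table holds only part of the list: of the 31 folding genes listed, 15 were in neither table.

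Of the 4 other genes of ER retrieval and transport, 1 was called higher in SNU-466, beside 38.7% of all genes. KDELR2, another KDEL receptor, was the more abundant, at 325 and 323 FPKM in SNU-466, 84.4 and 83.5 FPKM in AM-38 and 120 and 112 FPKM in A-172 (log2 fold change 1.72 ± 0.03 SE, edgeR adjusted p = 8.90e-62). The COPII coat genes SEC23A, SEC24A and SEC24D, which carry cargo out of the ER, had log2 fold changes of 0.93, 0.87 and 0.89, under the fold threshold. Of the 2 degradation genes, OS9, a lectin that recognises misfolded glycoproteins, was called higher (1.55 ± 0.04, SE) and UBE2J1, a ubiquitin-conjugating enzyme of the ER, lower (−1.42 ± 0.06, SE; edgeR adjusted p = 5.18e-56 and 1.47e-39).

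Of 4 sensors and transcription factors, 3 were called lower in SNU-466 and none higher, where 55.2% of all genes were lower and 38.7% higher, so this count and that of the ATF4-induced regulators are near the background. CREB3L1, an ER-bound factor cleaved like ATF6, stood at 0.29 and 0.28 FPKM in SNU-466, 4.15 and 4.22 FPKM in AM-38 and 19.1 and 17.5 FPKM in A-172. CEBPG, a partner of ATF4, had a log2 fold change of −2.78 ± 0.09 and CEBPB of −2.08 ± 0.09 (SE, edgeR adjusted p = 8.67e-47 and 4.34e-38). EIF2AK3, which encodes PERK, had a log2 fold change of 0.92, under the threshold. The 8 other genes listed as regulators induced through ATF4, TRIB2 among them, split evenly: 4 were higher and 4 lower. Whether ATF4 induces each listed gene was not tested here. CHAC1 and NUPR1, a stress-induced chromatin protein, were lower, with log2 fold changes of −4.34 ± 0.27 and −3.52 ± 0.10 (SE, edgeR adjusted p = 5.53e-26 and 7.14e-50), as was INHBE with 2 and 3 reads in SNU-466. TRIB2, a relative of TRIB3, was higher in SNU-466, with 28.4 and 27.9 FPKM there, 3.66 and 3.66 FPKM in AM-38 and 2.68 and 2.64 FPKM in A-172 (log2 fold change 3.17 ± 0.06 SE, edgeR adjusted p = 5.93e-61). VLDLR, a lipoprotein receptor, and DDIT4, an inhibitor of mTORC1, were higher too, by 2.73 ± 0.07 and 1.63 ± 0.07 (SE, edgeR adjusted p = 1.41e-52 and 6.41e-38).

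Amino acid genes were mostly lower in SNU-466, the side of PSAT1. Over the lists of synthesis enzymes, transporters and tRNA synthetases, 17 of 20 genes were called lower and 2 higher, with a median log2 fold change of −2.53. Among all genes tested, 55.2% were called lower and 38.7% higher, with a median of −1.46. PHGDH, which catalyses the step before PSAT1, stood at 1.19 and 1.33 FPKM in SNU-466, 19.3 and 17.4 FPKM in AM-38 and 11.1 and 10.2 FPKM in A-172 (log2 fold change −3.46 ± 0.07 SE, edgeR adjusted p = 1.16e-58). GLUL, which makes glutamine, had 1 and 2 reads in SNU-466 and 1640 to 1843 reads in the other libraries. BCAT1, a branched-chain aminotransferase, had 22 and 19 reads in SNU-466 and 1025 to 2672 reads in the others. BCAT2, its mitochondrial relative, had a log2 fold change of −2.85 ± 0.13 (SE, edgeR adjusted p = 8.21e-36). ALDH1L1, a cytosolic folate enzyme, was called lower but had 1 and 5 reads in A-172 beside 3 and 7 reads in SNU-466, so its call came from AM-38, with 446 and 379 reads; without A-172 library 2 it was no longer called (edgeR adjusted p = 0.103).

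Among the transporters, 7 of 8 were called lower, beside 55.2% of all genes. SLC7A11 stood at 0.88 and 0.92 FPKM in SNU-466, 15.7 and 17.6 FPKM in AM-38 and 26.9 and 33.3 FPKM in A-172 (log2 fold change −4.63 ± 0.08 SE, edgeR adjusted p = 3.69e-66). SLC38A1, a glutamine transporter, had a log2 fold change of −2.97 ± 0.06 and SLC6A9 of −3.73 ± 0.30 (SE, edgeR adjusted p = 1.14e-62 and 3.43e-20). SLC6A9 had 0.04 and 0.11 FPKM in SNU-466, and without SNU-466 library 2 its log2 fold change was −4.51. SLC1A1, a glutamate transporter, was the exception, with 9.50 and 8.62 FPKM in SNU-466, 0.01 and 0.05 FPKM in AM-38 and 1.52 and 1.85 FPKM in A-172. The 3 tRNA synthetases TARS1, SARS1 and AARS1 were lower, with log2 fold changes of −2.17, −1.60 and −1.43. ALDH18A1, the first enzyme of proline synthesis, was the other gene called higher, by 1.06 ± 0.04 (SE, edgeR adjusted p = 1.45e-37); with TMM or DESeq2's size factors it was 0.93 or 0.65 and not called.

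KRT18 was also low in SNU-466, with 3 and 5 reads, against means of 72.0 FPKM in AM-38 and 320 FPKM in A-172. S100B was high there, at 958 FPKM, against 0.81 FPKM in AM-38 and 0.025 FPKM in A-172. PTPRC, PECAM1 and CDH5 had at most 1 read in either SNU-466 library, and CSF1R 2 and 3 reads. The part of cell type or medium in these differences was not tested.

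**Figure D5:**
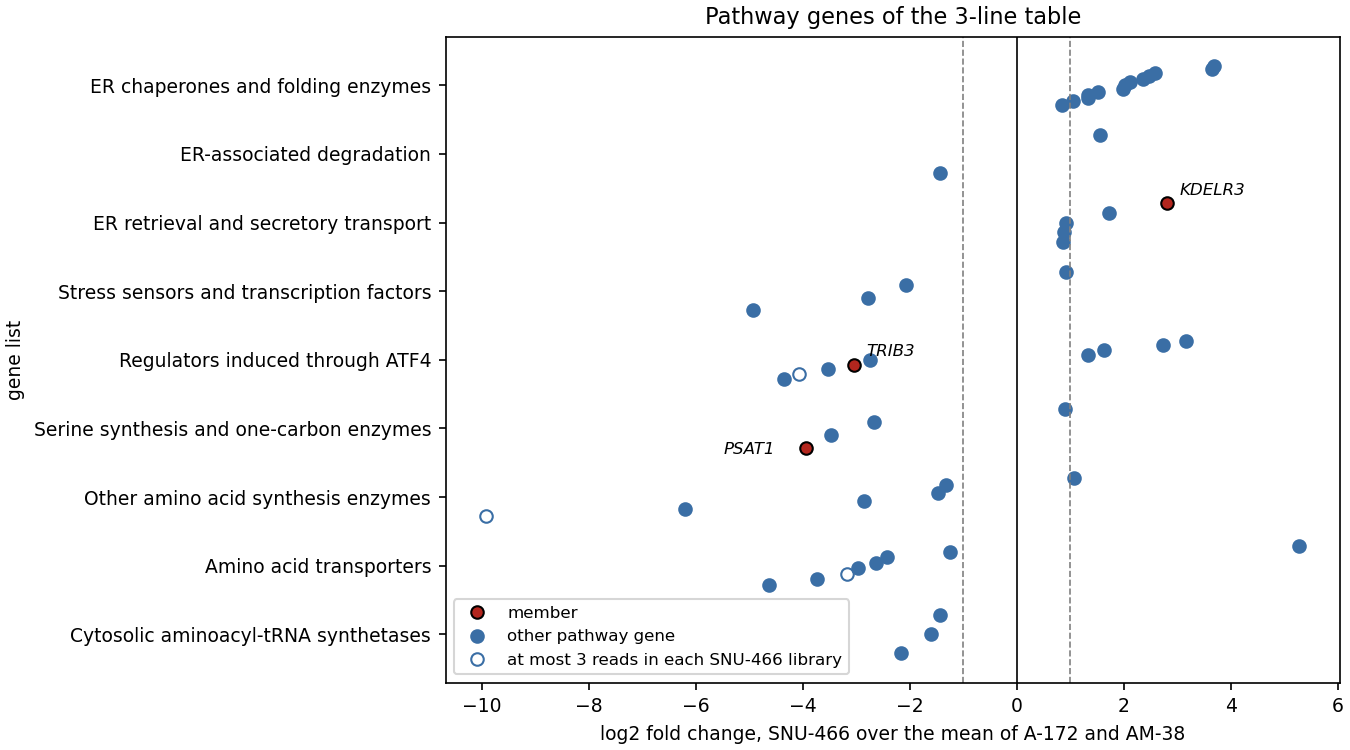
Log2 fold change of SNU-466 over the mean of A-172 and AM-38 (x axis) for the listed genes by list (y axis), with dashed lines at the fold threshold; open points had at most 3 reads in each SNU-466 library, so their position depends on the fit. Folding genes lie to the right with KDELR3, and most amino acid genes to the left with PSAT1.

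Across the 8 line means, HYOU1 and CRELD2 had a Pearson correlation of 0.84, HYOU1 and TRIB3 of 0.75, and CRELD2 and TRIB3 of 0.86 (log2 of FPKM + 0.1). These are descriptions over lines that share the choice of T98G. Without T98G they were −0.11, 0.14 and 0.63, so HYOU1 followed neither of the others across the 7 remaining lines. Of 1595 other genes with a line mean of at least 1 FPKM, MPPED2, a metallophosphoesterase, was most like HYOU1 (0.99, and 0.89 without T98G), followed by SUSD2 (0.97, and 0.76 without T98G) and TRPA1, an ion channel (0.97, and 0.63 without T98G). SLC6A9 was most like CRELD2 (0.97, and 0.88 without T98G) and second most like TRIB3 (0.91, and 0.79 without T98G). FLRT1 was next for CRELD2 (0.97, and 0.85 without T98G), then ENSG00000260949 (0.90, and 0.54 without T98G). CCDC69 was most like TRIB3 (0.95, and 0.89 without T98G), and CES1, a carboxylesterase, came after SLC6A9 (0.90, and 0.76 without T98G). Outside T98G, MPPED2 reached at most 0.27 FPKM, TRPA1 0.23, ENSG00000260949 0.32, FLRT1 0.38, CES1 0.5 and SUSD2 0.9. These levels are low beside the 0.1 FPKM added before the log, so the correlations of these genes without T98G rest on values near the floor. The likeness in line means did not extend to the T98G libraries: MPPED2 stood at 3.64 and 4.30 FPKM in T98G libraries 1 and 2, and CCDC69 at 2.26 and 6.49 FPKM, higher in library 2, where the members were lower.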

How the data were processed

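RNA-seq of 22 libraries was used. The authors deposited, per gene and library, read counts, FPKM and gene length. Per the submitters' processing notes, the tools were HISAT2 2.2.1, StringTie 1.3.3, HTSeq 0.6.0, FastQC 0.10.1 and cutadapt 1.9.1 on GRCh38, and no role is given to any of them. How genes were chosen for each table, and the annotation release behind the counts, are not given in the sources used here. Gene symbols matched for 2220 of 2221 and 5382 of 5383 genes.

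Library totals were worked back from counts, length and FPKM, over genes of at least 20 FPKM and 200 reads. Of these totals, 5.81% to 10.2% fell on genes of the 8-line table and 21.8% to 37.1% on those of the 3-line table. Levels are the deposited FPKM. Deposited counts were tested with edgeR 4.0.16 (quasi-likelihood, library totals, 1 coefficient per line), by table and adjusted over all 2095 or 5035 genes that passed the low-count filter. The dispersion of a gene was shared by all lines of its table. For edgeR, the SE is the size of the log2 fold change over the square root of the F statistic. Calls needed a Benjamini-Hochberg adjusted p under 0.05 and a log2 difference of 1 or more either way. The method was checked on simulated counts with the same dispersion in every line, so the check does not cover the wider spread of the T98G libraries. All 5 members passed the filter in each table that holds them. The other groups of genes were 9 lists of 159 genes in all, of which 96 were in neither table. The members, lists and tests were chosen with earlier results of these data known. Named genes were the members, up to 3 called genes in each direction per list and comparison with at least 1 FPKM in a line, and the 3 genes most like each member in the 8-line table. SLC1A5, SLC38A2, DNAJB11 in SNU-466, the COPII genes, EIF2AK3 and the markers were named outside this rule, after their values were seen.

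Replicates differed by more than counting noise in each line (chi-square per degree of freedom 2.36 to 197), so each library was kept. Same-numbered libraries did not deviate together. Alternatives were TMM and RLE factors, DESeq2 1.42.0, limma 3.58.1 on log2 CPM (prior count 2), no filter, a replicate block and leaving out each library. Exact intervals cover counting error only.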

Additional observations from a re-analysis of the deposited data

How the results depend on the processing

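With the replicate number as a block, the calls over all genes numbered 1059 for T98G against the 7 other lines, 885 for T98G against KALS-1 and LN-18, 4729 for SNU-466 and 2408 for AM-38 against A-172, beside 1063, 895, 4730 and 2445 without it. The numbers did not pair the libraries: correlations of same-numbered deviations were −0.10 to 0.07 over the 28 pairs of lines and −0.02 to 0.02 over the 3 pairs. Some counts moved by more than 1.5 times. Other pathway genes called higher in AM-38 numbered 13 with DESeq2 and 13 with RLE factors, beside 8. Genes called lower in T98G against the 7 other lines numbered 997 with limma, beside 630, and 55.2% of calls there were higher with TMM, 56.3% with RLE, 51.3% with DESeq2 and 27.1% with limma, beside 40.7%. Genes past the fold between the T98G libraries numbered 616 at 1.5-fold and 126 at 1 FPKM or more, beside 278; with TMM factors the ratio was 3.77 for HYOU1, 3.85 for CRELD2 and 2.41 for TRIB3, and that of SLC7A11 moved to the other side of 1, at 1.03. Factors shifted the median of all genes by 0.58 (TMM) and 0.62 (RLE) in T98G against the 7 others, by 0.23 and 0.26 against KALS-1 and LN-18, by −0.13 and −0.42 in SNU-466, and by 0.05 and 0.13 in AM-38. In SNU-466 the pathway genes called higher numbered 18 with TMM and 15 with RLE, beside 20, and 25 were lower each time. KDELR3 was then at 2.67 and 2.39 on the log2 scale, PSAT1 at −4.06 and −4.34, and no member changed direction.

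Leaving out 1 library at a time moved no count by 1.5 times. All genes called higher and lower ranged over 402 to 446 and 544 to 629 for T98G against the 7 others, 270 to 328 and 513 to 591 against KALS-1 and LN-18, 1928 to 2061 and 2778 to 2836 for SNU-466, and 1188 to 1221 and 1156 to 1195 for AM-38. Other pathway genes ranged over 9 to 9 and 1 to 1, 7 to 8 and 1 to 1, 20 to 20 and 24 to 25, and 7 to 10 and 5 to 7. The cause of these changes was not tested. Fold changes in T98G against the 7 other lines also moved by over 1.5 times, those of the members among them: on the log2 scale with RLE factors HYOU1 was 3.49, CRELD2 4.14 and TRIB3 5.15, beside 2.82, 3.47 and 4.49, and without T98G library 1 they were 1.67, 2.29 and 3.81. With 2 libraries per line, the T98G values carry the widest spread.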
